A study of Mus musculus with 9 samples.

Results

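HC11-FL control cells, which carry full length Mkl1, were compared with the average of 2 strains carrying mutant Mkl1, to find the transcripts that moved away from HC11-FL in the same direction in both mutants. HC11 is a mammary epithelial cell line from mid-pregnancy BALB/c mice. All 3 strains stably expressed Mkl1 with red fluorescent protein at its C-terminus: the full length protein in HC11-FL, a protein with alanine substitutions in the SRF-interaction site of the B1 domain in HC11-mutB1, and a protein without the SAP domain in HC11-ΔSAP. Every culture was kept for 48 h in RPMI with 0.03% FCS and no EGF before RNA extraction. Each construct was represented by 1 selected and sorted strain with 3 arrays, the arrays carried replicate numbers only, and no strain with an empty vector was arrayed. P-values therefore measure the spread between arrays of a strain, and anything peculiar to HC11-FL as a strain appears in both mutants alike. All 9 arrays of the series entered the comparison, and 20286 of the 34760 probesets reached a mean log2 expression of 4 over the 9 arrays.

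Mkl1 (also called Mrtfa or MAL) is a coactivator that binds G-actin and enters the nucleus when actin polymerizes. There it drives genes with CArG boxes together with the serum response factor Srf, through its B1 region. The SAP domain is a small DNA-binding motif found in proteins of the nucleus, and it has been linked to Mkl1 activity that does not pass through Srf.

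Differences are given as log2 expression in HC11-FL minus the mean of the strain means of HC11-mutB1 and HC11-ΔSAP, so a positive value means higher in HC11-FL. A probeset was called when its adjusted p in limma was 0.01 or lower, its fold 2 or higher and its mean log2 level over the 9 arrays 4 or higher. As RNA was taken from whole cultures, fewer cells that express a gene and less of its RNA per cell cannot be told apart. Arrays of the same strain correlated at r = 0.992 to 0.995 across these probesets and arrays of different strains at r = 0.972 to 0.979. Epithelial markers were present in every strain (mean Krt8 from 9.83 to 10.55 and mean Epcam from 9.90 to 10.44 over the strains). Of the markers of other cell types, none of 5 endothelial, 3 of 6 leukocyte and macrophage, 7 of 8 fibroblast and 2 of 4 adipocyte genes reached a mean of 4. Strain means of Ptprc lay at 3.39 to 3.55, of Lum at 2.46 to 2.49 and of Adipoq at 2.65 to 2.82, but Cd68 ran from 7.35 to 8.14 and Fabp4 from 6.96 to 9.26. The fibroblast genes Pdgfrb (0.62) and Dcn (-0.66; 5.01 in HC11-FL, 4.52 in HC11-mutB1, and for HC11-ΔSAP cells 6.82) were the markers of these lists that passed the adjusted p in the pooled comparison, and their part in the results was not tested. The Mkl1 probeset may measure construct and endogenous transcript together, but the positions of its probes were not examined. It read 10.08, 9.86 and 9.92 in HC11-FL, 9.89, 9.83 and 9.76 in HC11-mutB1, and for HC11-ΔSAP cells 9.55, 9.47 and 9.41. Its pooled difference of 0.30 (SE 0.061) passed the adjusted p in limma but was below the fold minimum. For this probeset the HC11-ΔSAP arrays were the lowest, whereas the HC11-FL and HC11-mutB1 arrays overlapped. An exact two-sided permutation test of 3 against 6 arrays gave p = 0.048, where 0.0119 is the smallest p this test allows. Srf differed by 0.04 (adjusted p = 0.60) and Mkl2 by -0.15 (adjusted p = 0.038).

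Against the average of both mutants, 173 probesets were higher (0.853% of those tested) and 259 were lower (1.28%) in HC11-FL cells. Of these 432 probesets, 396 were annotated to 1 gene. The folds nearest to the minimum on either side were 2.002 and 1.998. In 151 of the 173 higher and 230 of the 259 lower probesets, each mutant alone also differed from HC11-FL in the same direction at an adjusted p of at most 0.01. These common changes stand for 138 genes higher and 205 genes lower in HC11-FL, counted with 1 probeset per gene. Both mutant comparisons use the same HC11-FL arrays. The HC11-FL arrays lay outside the range of the 6 mutant arrays in all 151 and all 230 common probesets, whereas among all expressed probesets they lay above it in 12.6% and below it in 14.7%. The common probesets were selected by fold and adjusted p on these same arrays, so their count is not a separate test. Median folds were 2.78 and 2.49, and 42 higher and 34 lower probesets reached 4-fold.

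**Figure D1:**
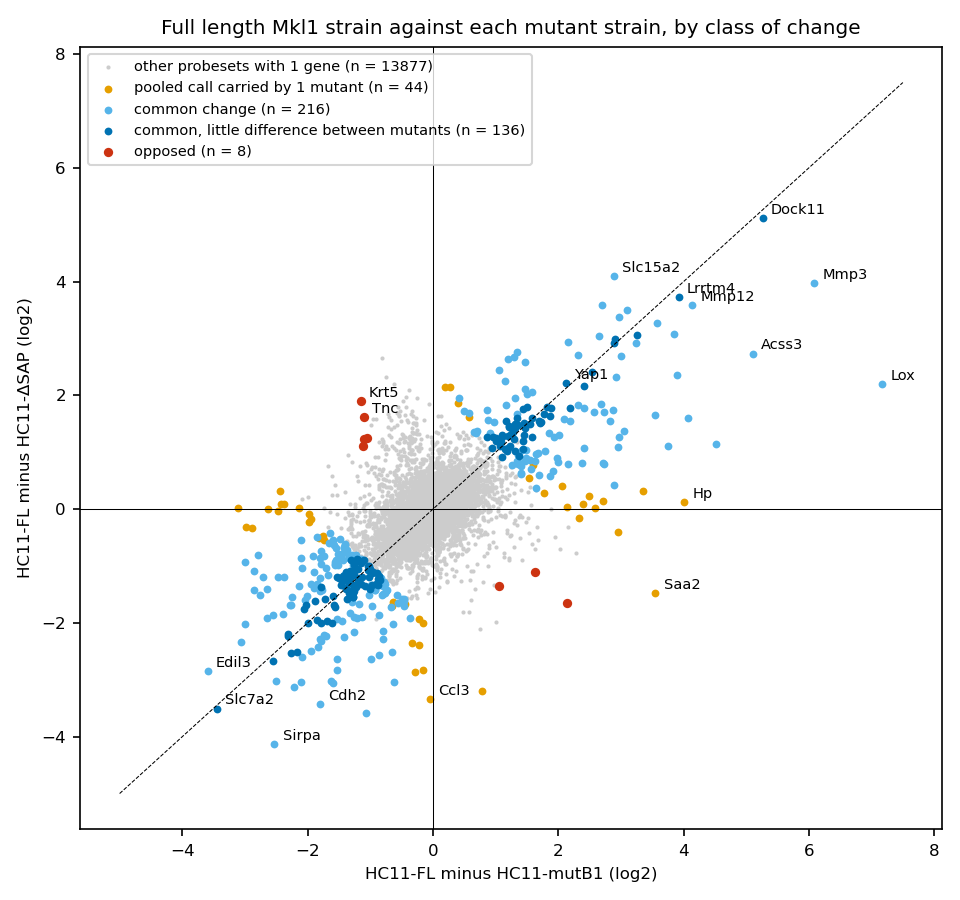
HC11-FL minus HC11-mutB1 (x axis) against HC11-FL minus HC11-ΔSAP (y axis), both in log2, for each expressed probeset with 1 annotated gene. Colours give the class of change and the dashed line marks equal distance from both mutants. Dock11, Lrrtm4, Yap1 and Slc7a2 sit on or near the line, Lox and Mmp3 lie below it, Hp and Ccl3 lie close to an axis, and the red points lie in the corners where the mutants oppose each other. Saa2, also opposed, is coloured as carried by 1 mutant because its pooled difference passed.

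Among the largest common changes were genes whose signal was near background in both mutants. Dock11, an exchange factor for Cdc42, read 8.16, 8.26 and 8.33 in HC11-FL, 3.05, 3.03 and 2.89 in HC11-mutB1, and for HC11-ΔSAP cells 3.24, 3.32 and 2.84. All 6 mutant arrays were therefore below the expression minimum of 4, and the pooled difference was 5.19 (SE 0.105, adjusted p = 6.1e-08). Lrrtm4, a synaptic adhesion protein with leucine-rich repeats, read 6.70, 6.82 and 6.99 in HC11-FL cells against 2.81 to 2.98 in HC11-mutB1, and for HC11-ΔSAP cells 3.03 to 3.25 (14.2-fold). These were the only genes with a mean of at least 6 in HC11-FL and under 4 in both mutants. In the opposite direction a single gene met this rule: Edil3, a secreted integrin ligand, read 3.91, 3.63 and 3.54 in HC11-FL, 7.20 to 7.36 in HC11-mutB1, and for HC11-ΔSAP cells 6.47 to 6.62 (9.33-fold lower in HC11-FL). Folds against a level near background are uncertain in size. Means under 4 occurred in at least 1 mutant for 19 of the 151 probesets higher in HC11-FL, and in HC11-FL for 8 of the 230 lower ones.

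Genes of matrix breakdown and cross-linking were among the largest changes higher in HC11-FL. The stromelysin Mmp3 read 9.68, 9.72 and 9.82 in HC11-FL, 4.10, 3.50 and 3.35 in HC11-mutB1, and for HC11-ΔSAP cells 5.53, 5.87 and 5.92, so all strains were apart and HC11-mutB1 was lowest. The macrophage elastase Mmp12 was at 11.78 ± 0.06 (mean ± SD, n = 3) in HC11-FL cells, 7.64 ± 0.07 in HC11-mutB1, and for HC11-ΔSAP cells 8.20 ± 0.06. The collagenase Mmp13 read 7.86 ± 0.10, 4.02 ± 0.11 and 4.78 ± 0.01 in the same order. Pooled over both mutants the folds were 32.6 for Mmp3, 14.6 for Mmp12 and 11.0 for Mmp13 (adjusted p = 6.0e-07, 2.3e-08 and 5.9e-08). For each of them HC11-ΔSAP lay above HC11-mutB1, by 2.12, 0.55 and 0.76 on the log2 scale (adjusted p = 1.6e-04, 3.1e-04 and 2.0e-04). Of 17 measured matrix metallopeptidases and inhibitors, 7 passed the adjusted p as higher and 4 as lower in HC11-FL, 6 and 3 of them in each mutant alone. The lower ones were the gelatinase Mmp2 (-0.91), Mmp28 (-0.84) and the inhibitors Timp2 (-0.39) and Timp1 (-0.29). For this and later lists, the shares among all 13157 measured genes were 11.4% higher and 16.5% lower at the same threshold. Against each mutant alone, 817 of 1910 higher and 1429 of 2517 lower probesets at this threshold also passed.

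The 3 metallopeptidase genes lie side by side on chromosome 9, and each has 1 AP-1 site close to its start. Their sequences are shown because the genes share both position and site. Each line gives the 250 bases before the annotated start on the + strand of GRCm38.p6 from RefSeq, 5′ to 3′, with the AP-1 site TGANTCA in capitals.
Mmp13, chr9:7272264-7272513: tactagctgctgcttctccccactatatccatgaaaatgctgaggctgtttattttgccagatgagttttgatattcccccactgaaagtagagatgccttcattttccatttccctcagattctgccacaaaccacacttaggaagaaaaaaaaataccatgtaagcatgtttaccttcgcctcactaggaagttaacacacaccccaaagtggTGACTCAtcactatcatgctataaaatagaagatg
Mmp12, chr9:7347124-7347373: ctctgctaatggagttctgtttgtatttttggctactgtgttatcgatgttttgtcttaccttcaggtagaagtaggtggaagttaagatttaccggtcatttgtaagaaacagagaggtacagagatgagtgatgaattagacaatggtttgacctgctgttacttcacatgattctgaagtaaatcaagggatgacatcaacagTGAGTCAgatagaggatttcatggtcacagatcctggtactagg
Mmp3, chr9:7445572-7445821: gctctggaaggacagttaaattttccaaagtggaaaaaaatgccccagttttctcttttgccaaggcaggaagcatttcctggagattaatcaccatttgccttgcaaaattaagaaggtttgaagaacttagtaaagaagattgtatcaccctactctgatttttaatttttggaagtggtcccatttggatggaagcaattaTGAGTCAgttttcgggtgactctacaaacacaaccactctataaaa
The sites begin 35, 44 and 46 bases before the start. Among the common changes higher in HC11-FL, 104 of 138 genes had a promoter in the table, with 137 promoters in all, each running from 250 bases before to 50 after a start. Of these, 9.49% held TGANTCA on either strand, compared with 5.40% of the 13197 promoters of expressed genes and 7.81% of all 32851 promoters. For the common changes lower in HC11-FL the share was 8.29% of 193 promoters. A CArG box, the site of Srf (CC, then 6 bases that are each A or T, then GG), was found in 6 of 137 promoters (4.38%) of the higher genes and in 5 of 193 (2.59%) of the lower ones, against 1.33% for expressed genes. The TEAD site GGAATG was found in 12.4% and 10.9%, against 12.2%. A match is a description of letters in this window. Of the 6 CArG genes higher in HC11-FL (Rnf128, Glipr2, Ppbp, Pdgfc, Rap1gap2 and Prune2), those with the largest differences are shown, with the box in capitals and both on the + strand; these genes were named after their values were seen.
Rnf128, chrX:139610370-139610619: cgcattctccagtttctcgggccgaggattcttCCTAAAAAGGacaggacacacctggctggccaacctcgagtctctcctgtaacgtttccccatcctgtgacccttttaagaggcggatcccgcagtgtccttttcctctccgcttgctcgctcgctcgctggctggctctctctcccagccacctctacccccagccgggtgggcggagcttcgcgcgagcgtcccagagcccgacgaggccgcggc
Glipr2, chr4:43957452-43957701: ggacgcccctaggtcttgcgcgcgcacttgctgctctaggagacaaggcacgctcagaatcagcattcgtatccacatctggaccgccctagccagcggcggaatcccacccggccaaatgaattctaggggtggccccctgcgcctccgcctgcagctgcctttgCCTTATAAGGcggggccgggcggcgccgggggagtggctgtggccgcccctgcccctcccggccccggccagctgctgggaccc
Rnf128, an E3 ubiquitin ligase, was higher in HC11-FL by 1.76 on the log2 scale and Glipr2, a protein of the Golgi membrane, by 1.61. The promoter of Ppbp, a platelet chemokine precursor, was the 1 promoter of the higher genes that held both a CArG box and an AP-1 site, at separate places.

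**Figure D2:**
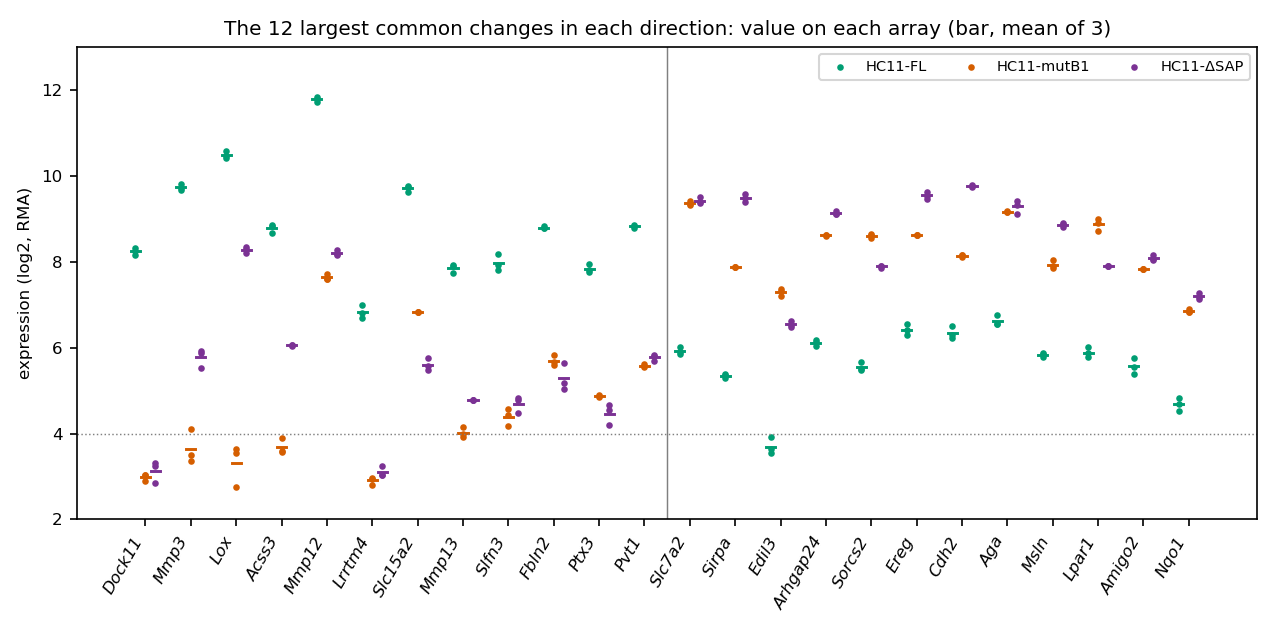
Log2 expression on each array for the 12 largest common changes higher (left of the grey line) and lower (right) in HC11-FL. Points are single arrays in the colour of the strain, horizontal bars are means of 3, and the dotted line is the expression minimum of 4. Genes were chosen among those whose HC11-FL points lie outside the range of the 6 mutant points. The distance between the mutants runs from none visible in Slc7a2 to almost 5 log2 units in Lox.

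Collagen genes did not move together. Lox, the lysyl oxidase that cross-links collagen and elastin, read 10.41, 10.57 and 10.47 in HC11-FL, 2.75, 3.55 and 3.63 in HC11-mutB1, and for HC11-ΔSAP cells 8.20, 8.30 and 8.34. HC11-ΔSAP thus kept a strong signal, and the mutants differed by 4.97 (adjusted p = 2.9e-06). When the spread between the mutants was counted as error, in a fit with 1 mean for all 6 mutant arrays, Lox missed the threshold (adjusted p = 0.080). The lysyl oxidase Loxl1 was higher in HC11-FL by 1.13 and the prolyl hydroxylases P4ha2 and P4ha1, which prepare collagen for folding, by 1.42 and 1.07. Of 34 measured collagen and cross-linking genes, 6 were higher and 11 lower in HC11-FL, 4 and 7 of them in each mutant alone, the lower ones led by the collagens Col6a1 (-1.63), Col5a3 (-0.83) and Col4a2 (-0.76). Of 20 matrix glycoproteins, 4 were higher and 7 lower. Fibulin-2 (Fbln2) was 9.88-fold higher in HC11-FL, and the mutants did not differ at the threshold (adjusted p = 0.11). Fibulin-5 (Fbln5) was 3.56-fold lower, by 1.54-fold against HC11-mutB1 and 8.23-fold against HC11-ΔSAP cells. The aggrecanase Adamts4 was 3.31-fold higher in HC11-FL.

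Neighbours of the metallopeptidase genes moved with them. Along chromosome 9, 12 of the 13 measured genes from Dync2h1 to Arhgap42 passed the adjusted p as higher in HC11-FL, and 9 of them passed all filters. The exception was Birc3, at 0.67 against HC11-mutB1 and -0.62 against HC11-ΔSAP. The ends of this block were set after the values were seen, so its count is a description. Among all measured genes 11.4% passed the adjusted p as higher, and 0.853% of expressed probesets passed all filters as higher. Yap1, the coactivator of the Hippo pathway, read 11.11, 11.04 and 11.05 in HC11-FL against 8.93 to 8.96 in HC11-mutB1, and for HC11-ΔSAP cells 8.81 to 8.90, a 4.49-fold difference. Arhgap42 at the far end had a second probeset with a larger difference (1.65) than the one counted here (0.25). Cfap300, a ciliary protein, was 8.87-fold higher in HC11-FL, the inhibitor of apoptosis Birc2 3.02-fold, the membrane protein Tmem123 2.77-fold and the cullin regulator Dcun1d5 2.66-fold. The progesterone receptor Pgr read 5.16, 5.35 and 5.03 in HC11-FL and 3.49 to 3.89 in the 6 mutant arrays, so it was above the expression minimum in HC11-FL alone. In Yap1 and Dcun1d5 the mutants differed little, by -0.10 and -0.12. Arhgap42, the smallest of the 12, did not pass against HC11-mutB1 alone (0.14). The genes on either side, Casp12 and Maml2, were at -0.63 and -0.12, while Fam76b, farther along, was higher in HC11-FL by 0.29 (adjusted p = 0.0061). DNA copy number of the strains was not analysed here, and its part in these values was not tested. Of 20 measured CCN genes and YAP-TEAD targets, 9 were higher and 3 lower in HC11-FL, 4 and 2 of them in each mutant alone. They included Yap1 itself, the LIM protein Ajuba (0.86) and Amotl2 (0.64), while Wwtr1, the paralog of Yap1, was lower (-0.55).

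**Figure D3:**
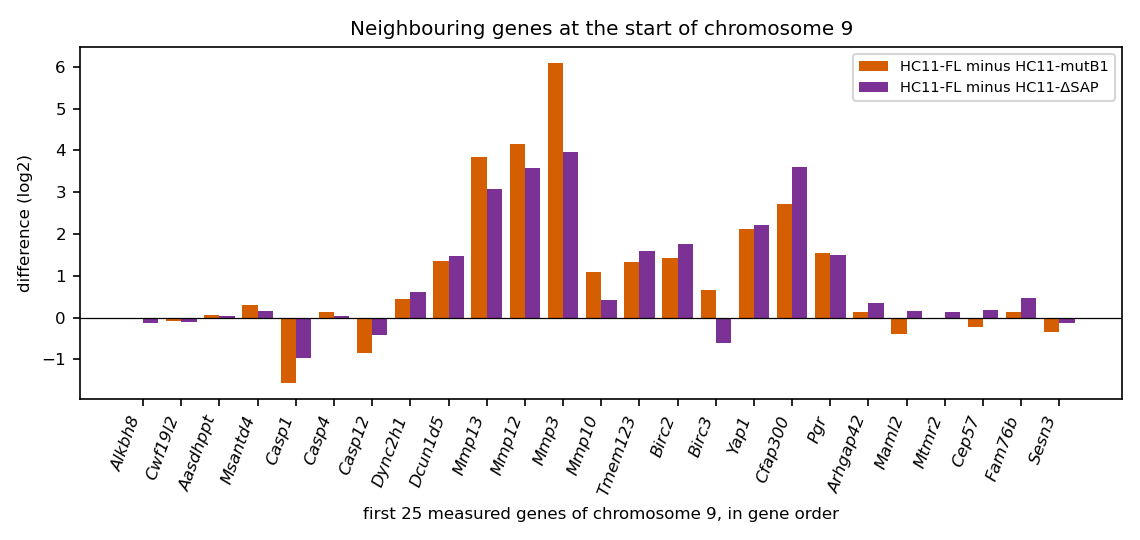
Difference from each mutant (bars, log2) for the first 25 measured genes of chromosome 9 in gene order. From Dync2h1 to Arhgap42 the bars point up for both mutants except at Birc3. Outside this block the highest bars are those of Fam76b (0.12 and 0.47) and Msantd4 (0.30 and 0.16), and Casp1 has the lowest.

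Common changes with little difference between the mutants were singled out by the interval of the direct comparison: the 95% interval of HC11-ΔSAP minus HC11-mutB1 had to lie within 1.5-fold in both directions. This held for 56 of the 151 probesets higher and 94 of the 230 probesets lower in HC11-FL. Their median folds were 2.57 and 2.35. In 6 of the 56 higher probesets, among them Dock11, Lrrtm4, Lonrf3, Hacd1 and Pgr, both mutant means were under 4, so a small difference between the mutants has no meaning there beyond both being near background. Besides Dock11, Lrrtm4 and Yap1, the 10 largest higher genes included Pvt1, a long non-coding RNA next to Myc, which read 8.84, 8.79 and 8.85 in HC11-FL, 5.55 to 5.61 in HC11-mutB1, and for HC11-ΔSAP cells 5.68 to 5.84. Igf2bp1, an oncofetal RNA-binding protein, was 7.70-fold higher, with an interval of -0.24 to 0.06 between the mutants. The transcription factor Tfap2b (4.89-fold), Tmem223 (7.48-fold), Lonrf3 (5.55-fold), Gdpd2 (3.95-fold) and Hacd1 (3.55-fold) were the others. Differing little did not mean equal: the interval between the mutants excluded 0 in Pvt1 (0.08 to 0.32), Tfap2b (0.11 to 0.40), Gdpd2 (0.30 to 0.54) and, narrowly, Yap1.

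The largest change in the other direction was also alike in both mutants. Slc7a2, a transporter of cationic amino acids, read 5.85, 6.004 and 5.89 in HC11-FL, 9.33, 9.35 and 9.42 in HC11-mutB1, and for HC11-ΔSAP cells 9.38, 9.38 and 9.51. HC11-FL was 11.2-fold lower (SE 0.052 on the log2 scale, adjusted p = 2.3e-08), and the interval between the mutants was -0.08 to 0.20. The lysosomal hydrolase Aga was 6.08-fold lower in HC11-FL, the adhesion protein Amigo2 5.25-fold, the quinone reductase Nqo1 5.07-fold and the kinase Lrrk2 4.83-fold. Ttc9 (4.75-fold), the exchange factor Arhgef26 (3.98-fold), the inositol kinase Itpkb (3.76-fold), the sodium and calcium exchanger Slc24a3 (3.75-fold) and the angiogenin family ribonuclease Ang2 (3.71-fold) followed. In Arhgef26 the mutant means differed by 0.01 (interval -0.13 to 0.14).

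In many other common changes the mutants lay at different distances from HC11-FL. Among the 151 probesets higher in HC11-FL, 83 differed between the mutants at an adjusted p of at most 0.01, compared with 15.7% of all expressed probesets: HC11-mutB1 was the lower strain in 56 and HC11-ΔSAP in 27. Among the 230 lower in HC11-FL, HC11-ΔSAP was the higher strain in 60 and HC11-mutB1 in 69. Of those with little difference, 5 and 14 also passed this test. A further 17 and 21 probesets neither passed this test nor had an interval narrow enough to count as alike. The peptide transporter Slc15a2 was an example with HC11-ΔSAP farther away, at 9.71 ± 0.08 in HC11-FL, 6.82 in all HC11-mutB1 arrays, and for HC11-ΔSAP cells 5.61 ± 0.14. Cavin2, a coat protein of caveolae, had HC11-mutB1 farther away, at 7.46 ± 0.07 in HC11-FL, 3.38 ± 0.17 in HC11-mutB1 and 5.85 on all HC11-ΔSAP arrays, and so did Acss3, a synthetase of acyl-CoA, 34.3-fold and 6.65-fold below HC11-FL. Slfn3, of a family of similar genes whose probes may share signal, was 10.8-fold higher in HC11-FL. The pentraxin Ptx3 was 8.99-fold higher, with HC11-mutB1 at 4.87 ± 0.02 and HC11-ΔSAP at 4.47 ± 0.25.

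Several of the largest changes lower in HC11-FL were in receptors, adhesion proteins and a growth factor. Sirpa, the receptor for Cd47, read 5.37, 5.29 and 5.38 in HC11-FL, 7.88 on each HC11-mutB1 array, and for HC11-ΔSAP cells 9.39 to 9.57 (10.1-fold). N-cadherin (Cdh2) read 6.23, 6.49 and 6.29, then 8.10 to 8.16, then 9.73 to 9.78 (6.13-fold), and the EGF receptor ligand epiregulin (Ereg) 6.29 to 6.54, 8.63 and 9.47 to 9.62 (6.37-fold). In all 3 the HC11-ΔSAP arrays were the highest. Arhgap24, which switches off Rac, was 6.75-fold lower in HC11-FL, the sorting receptor Sorcs2 6.49-fold, mesothelin (Msln) 5.95-fold and the lysophosphatidic acid receptor Lpar1 5.68-fold. Repeated values, as in Sirpa and Ereg, may make the SD of a strain too small; the cause was not tested. Such a repeat within a strain occurred in 37 of the 151 and 68 of the 230 common probesets, and in 22.8% of all expressed probesets.

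The gene lists were read against all 13157 measured genes, of which 11.4% were higher and 16.5% lower in HC11-FL at an adjusted p of at most 0.01 with no fold minimum. The median difference over all genes was 0.01. Among all expressed probesets at this threshold, 817 of 1910 higher and 1429 of 2517 lower ones also passed against each mutant alone. The list of glycolysis and the hypoxia response had the highest share of members higher in HC11-FL among the 29 lists: 25 of 33 measured members were higher and 1 was lower, with a median difference of 0.56. In 21 of the 25, each mutant alone was below HC11-FL at the threshold. Adenylate kinase Ak4 was at 8.64 ± 0.08 in HC11-FL, 6.82 ± 0.12 in HC11-mutB1, and for HC11-ΔSAP cells 6.85 ± 0.13 (3.49-fold), and the mitophagy receptor Bnip3 was 3.47-fold higher. Enzymes along glycolysis were higher as well, with the phosphofructokinase Pfkl at 2.56-fold, the enolase Eno3 at 3.16-fold, lactate dehydrogenase Ldha at 1.499-fold, Tpi1 at 1.47-fold and the glucose transporter Slc2a1 at 1.52-fold. The kinase Pdk1, which restrains entry of pyruvate into the citrate cycle, was 2.06-fold higher and Hif1a itself 1.62-fold. Enolase Eno2 was the member that was lower (-0.81), and Vegfa and Car9 did not pass (-0.16 and 0.09). Carbonic anhydrase Car12 passed in the average at 0.79 but moved in opposite directions in the mutants, -0.62 against HC11-mutB1 and 2.19 against HC11-ΔSAP.

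Cholesterol and fatty acid synthesis had 9 of 24 members higher and none lower, 7 of them in each mutant alone. The largest was the sterol enzyme Hsd17b7 (1.85-fold), followed by Hmgcs1 (1.41-fold) and Elovl6 (1.36-fold), all under the fold minimum. Of 20 acute phase and innate defence genes, 9 were higher and 4 lower, 4 and 1 of them in each mutant alone. Ptx3, the peptidoglycan receptor Pglyrp1 (6.16-fold) and lactotransferrin (Ltf, 4.25-fold) were higher against both mutants. Epithelial junction and luminal genes had 12 of 33 members higher and 8 lower, 10 and 4 of them in each mutant alone. Claudins Cldn7 and Cldn4 were 2.71-fold and 2.22-fold higher in HC11-FL, keratin Krt18 2.01-fold and the transcription factor Gata3 2.01-fold. Of the 10 mammary epithelium markers, 5 were higher and 4 lower at the threshold. The lower ones were Epcam (-0.48), Cdh1 (-0.24), Esrp1 (-0.21) and Krt14 (-0.16).

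**Figure D4:**
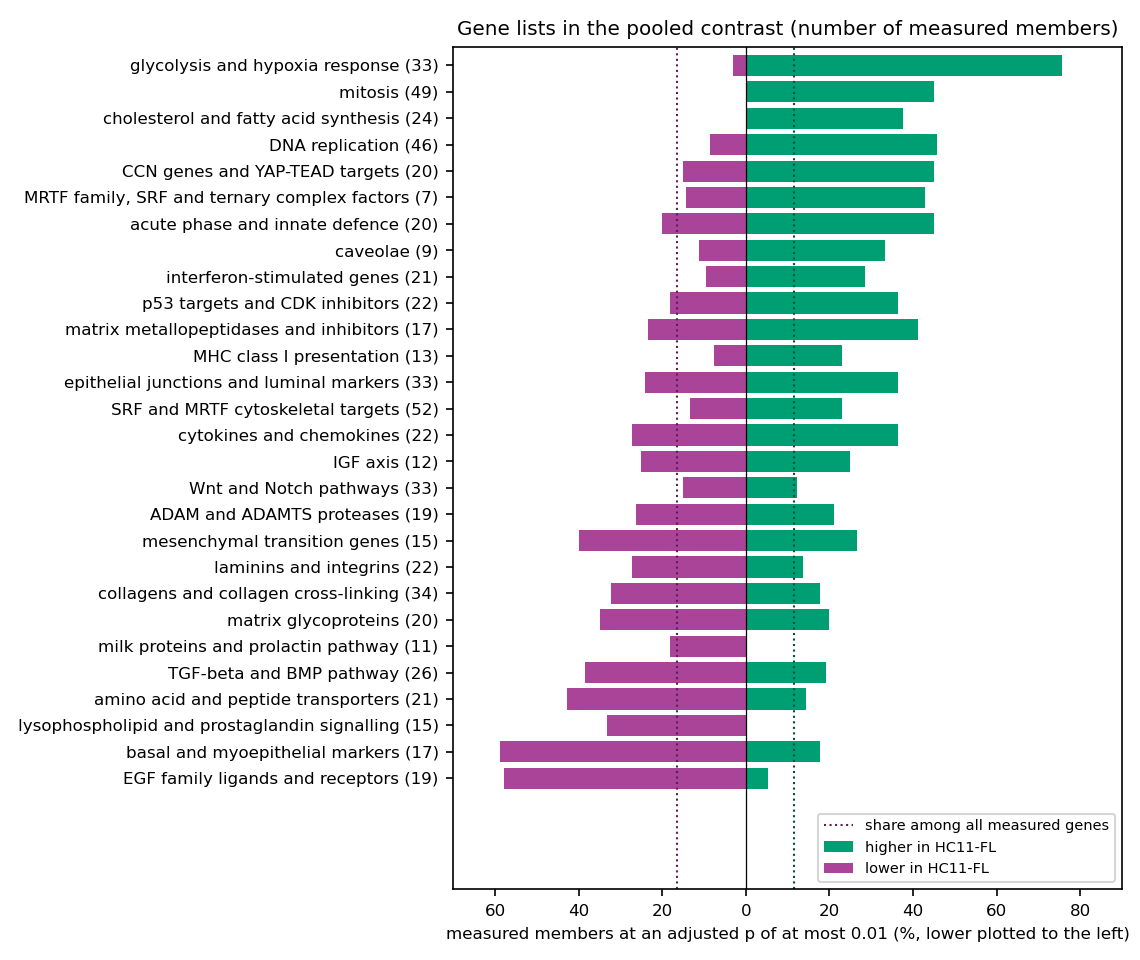
Share of measured members of each reported gene list that were higher (green, right) or lower (purple, left) in HC11-FL at an adjusted p of at most 0.01, with the number of measured members in brackets. Dotted lines are the shares among all measured genes, 11.4% and 16.5%. Glycolysis and hypoxia genes extend farthest to the right, EGF family and basal genes farthest to the left.

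The lists with the highest shares of members lower in HC11-FL were the EGF family (11 of 19 lower, 1 higher, median -0.32) and basal and myoepithelial markers (10 of 17 lower, 3 higher, median -0.21). In 5 of the 11 and 5 of the 10, each mutant alone passed in that direction. The EGF receptor ligands Ereg and epigen (Epgn, 2.38-fold) and the phosphatase Dusp6 (2.49-fold) led the first list. Dusp6, a feedback target of Erk signalling, was counted there but is neither a ligand nor a receptor of the family. P-cadherin (Cdh3, 3.52-fold), the Notch ligand Jag1 (2.504-fold) and neprilysin (Mme, 2.12-fold) led the second, and Mme passed against HC11-ΔSAP only, whereas smooth muscle actin (Acta2), a member of the basal list and an Srf target, was higher in HC11-FL by 0.91. Transporters of amino acids and peptides had 9 of 21 lower, 7 of them in each mutant alone, and 3 higher, with Slc38a1 at -1.98, the glutamate transporter Slc1a3 at -1.89 and the cystine transporter Slc7a11 at -1.35. In the TGF-beta and BMP pathway 10 of 26 were lower and 5 higher, 6 and 3 of them in each mutant alone, the co-receptor Tgfbr3 being 4.96-fold higher and the inhibitor of differentiation Id4 2.60-fold lower. In the IGF axis 3 were higher and 3 lower of 12, the binding protein Igfbp4 being 4.42-fold and the protease Pappa 3.50-fold lower in HC11-FL.

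Cytoskeletal targets of Srf and the MRTF coactivators went in both directions. Of 52 measured members, 12 were higher and 7 lower, the median difference was 0.01, and no member reached the fold minimum. Acta2 read 7.54 ± 0.09 in HC11-FL, 6.47 ± 0.04 in HC11-mutB1, and for HC11-ΔSAP cells 6.79 ± 0.02. Vinculin (Vcl) was higher in HC11-FL by 0.44 and the LIM protein Csrp1 by 0.52, whereas tropomyosin Tpm2 was lower by 0.70 and integrin Itgb1 by 0.46. Tpm2 is the first gene of a stretch of chromosome 4 that was lower in HC11-FL, given below. In 5 of the 12 higher and 4 of the 7 lower members, each mutant alone passed in the same direction. These shares were near those of all expressed probesets (817 of 1910 and 1429 of 2517). Of 7 measured members of the MRTF family, Srf and its ternary complex factors, Elk1 (0.68), Elk3 (0.52) and Mkl1 were higher in HC11-FL. Of these 3 genes, 2 passed in each mutant alone. Scai, a repressor of Mkl1, was lower in HC11-FL (-0.36, with -0.61 against HC11-mutB1 and -0.10 against HC11-ΔSAP). Scai lost this call without HC11-FL replicate 1 (adjusted p = 0.0102) or replicate 3 (adjusted p = 0.016). Mesenchymal genes had 4 of 15 members higher and 6 lower, with vimentin (Vim, 3.80-fold) and Zeb2 (3.15-fold) higher and Cdh2 and the receptor Fgfr1 (-1.24) lower in HC11-FL.

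Most of the remaining lists had members on both sides, counted here in the average of the mutants. Of 22 cytokines and chemokines, 8 were higher, led by the interleukin-1 receptor antagonist Il1rn (2.13-fold), and 6 were lower, led by Cx3cl1 (2.27-fold). Interferon-stimulated genes had 6 of 21 higher and 2 lower, and the largest of them, Ifit1, was 2.40 above HC11-mutB1 but 0.10 above HC11-ΔSAP on the log2 scale. Laminins and integrins had 3 of 22 higher and 6 lower, ADAM proteases 4 and 5 of 19, Wnt and Notch genes 4 and 5 of 33, and p53 targets with CDK inhibitors 8 and 4 of 22. In lysophospholipid and prostaglandin signalling 5 of 15 were lower and none was higher, with Lpar1 the largest, and of 11 milk protein and prolactin pathway genes 2 were lower, the larger being butyrophilin (Btn1a1, -0.98). MHC class I presentation had 3 of 13 higher and 1 lower, and caveolar genes 3 of 9 higher and 1 lower.

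The average also took in changes that belonged to 1 mutant. Of the 432 called probesets, 51 were not common: 16 higher and 18 lower passed in that direction against HC11-mutB1 only, and 6 higher and 11 lower against HC11-ΔSAP only. Haptoglobin (Hp), at 4.18-fold in the average, was 16.1-fold above HC11-mutB1 but 1.08-fold above HC11-ΔSAP cells (adjusted p = 0.49). The serum amyloid Saa3 and the zinc finger factor Plag1 were also above HC11-mutB1 only, by 10.2-fold and 6.60-fold, and Lratd1 (7.93-fold), the kinase-like Fam20a (7.38-fold) and Igsf10 (5.58-fold) were below it. The replication factor Mcm6 (4.42-fold), the CCN protein Wisp1 (4.41-fold) and the protease Adamts16 (3.63-fold) were above HC11-ΔSAP only, while the chemokine Ccl3 (10.2-fold), the anticoagulant cofactor Pros1 (7.30-fold) and the sulfotransferase Ndst4 (7.12-fold) were below it. Mitosis genes showed this across a whole list: 22 of 49 members were higher in HC11-FL in the average and none was lower, but 0 of the 22 passed against HC11-mutB1 in that direction. The kinase Nek2 was at -0.07 against HC11-mutB1 and 1.84 against HC11-ΔSAP, Nuf2 of the kinetochore at -0.26 and 1.95, and Cenpe, a kinetochore motor, at -0.47 and 1.89. In DNA replication 21 of 46 were higher and 4 lower, and each mutant alone passed in that direction in 1 of the higher and 2 of the lower ones. For 10 probesets the mutants passed all filters on opposite sides of HC11-FL: Saa2, Saa1, Wfdc17, the complement factor Cfb and a probeset without a listed gene were lowest in HC11-mutB1 and highest in HC11-ΔSAP, and keratin Krt5, tenascin-C (Tnc), collagen Col11a1 and the mitotic kinases Mastl and Bub1 were the reverse. Their pooled differences ran from -0.15 (Cfb) to 1.03 (Saa2).

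Differences were also spread unevenly along the chromosomes, a pattern that was examined after the values were seen. On chromosome 8, 349 of 733 measured genes (47.6%) passed the adjusted p as lower in HC11-FL and 4.23% as higher, with a median difference of -0.24 (-0.23 against HC11-mutB1 and -0.26 against HC11-ΔSAP). The shift began part of the way along: the running median of 51 genes in gene order stayed at -0.2 or below over 130 genes from Mboat4 to Arrdc2 (median -0.29) and over 361 genes from Gtpbp3 to Foxf1 (median -0.34). On chromosome 18, 35.7% of 325 genes were lower (median -0.20), and on chromosome 1, 29.8% of 712 genes were higher (median 0.15). Steps within a chromosome occurred on chromosome 11 (64 genes from Sgsh to Metrnl, median -0.48), chromosome 3 (74 genes from Bbs7 to Veph1, -0.35), chromosome 4 (95 genes from Chd7 to Phf24, -0.30) and chromosome 2 (165 genes from Ubr1 to Thbd, -0.29). Chromosome medians departed from 0 against 1 mutant in other cases: chromosome 14 at 0.22 against HC11-mutB1 and 0.02 against HC11-ΔSAP, and chromosome 12 at 0.02 and 0.22. Slc7a2, Aga and Nqo1 lie on chromosome 8, where the local medians around them were -0.32, -0.27 and -0.39. Sirpa and Slc24a3 lie in shifted parts of chromosome 2 (-0.29 and -0.33). Tpm2 opens a further stretch of chromosome 4 (53 genes from Tpm2 to Erp44, median -0.26). Wwtr1, Slc7a11, Jag1 and Cdh3 each stood among 3 or more neighbouring genes that passed the adjusted p as lower in HC11-FL. Of the 205 common genes lower in HC11-FL, 53 (25.9%) lay where the running median was at or below -0.2, compared with 10.7% of all placed genes. The running median comes from the same differences that selected these genes, so this share is not a separate test. After the local median was taken off, 164 of the 205 lower and 129 of the 138 higher genes still differed by 2-fold. Gene order came from GRCm38.p6, and the part of DNA copy number in these shifts was not tested.

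**Figure D5:**
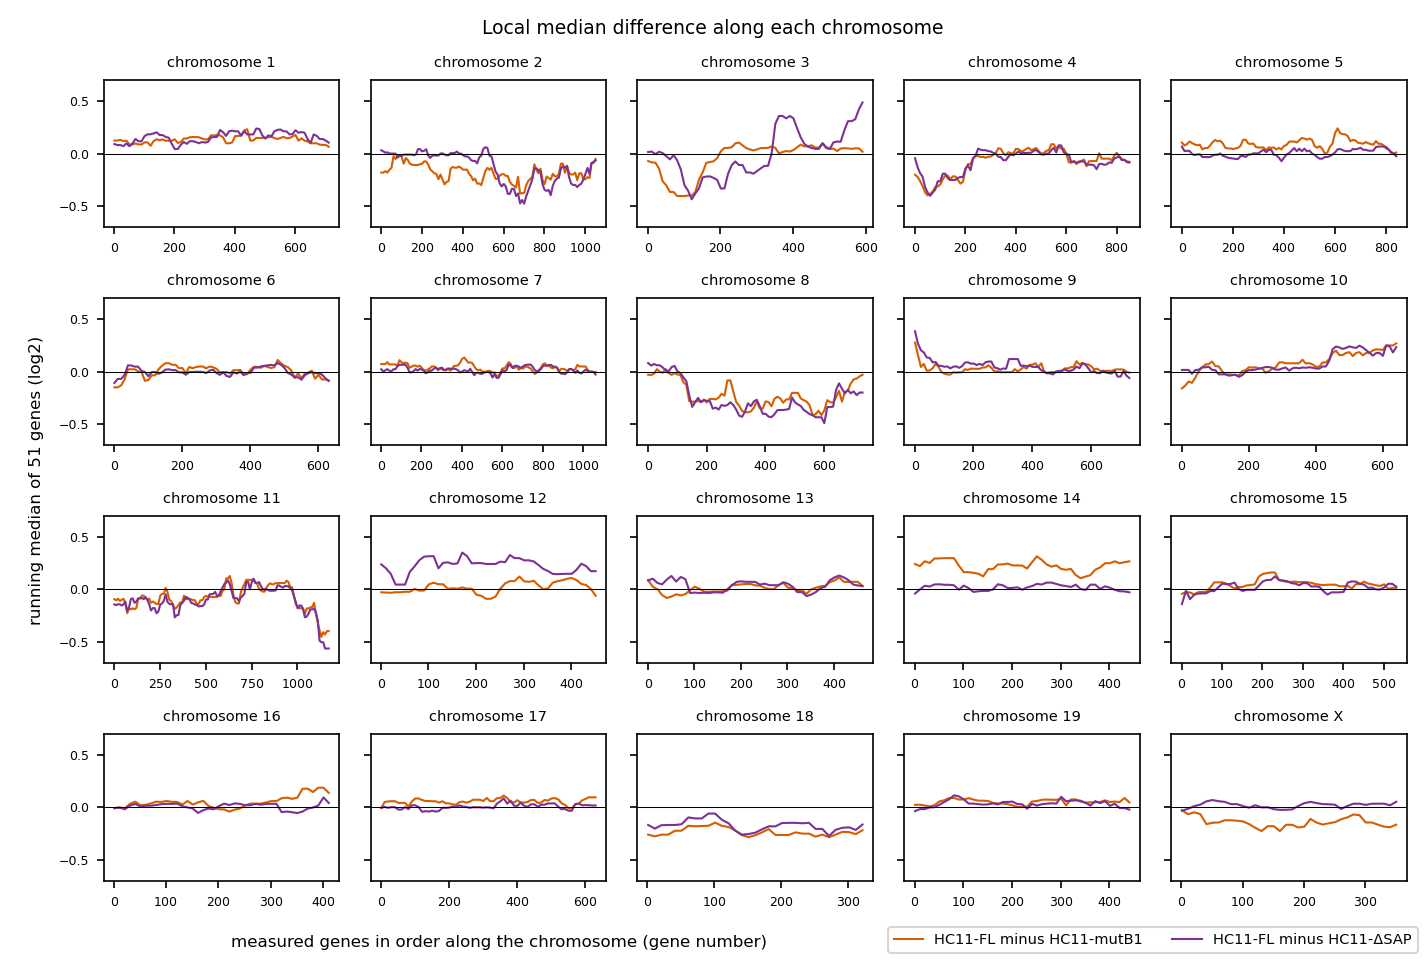
Running median over 51 neighbouring measured genes of the difference from HC11-mutB1 (orange) and from HC11-ΔSAP (purple), in log2, along each chromosome in gene order. Both lines fall together on chromosome 8, on chromosome 18, in early chromosome 4 and at the end of chromosome 11, and rise together on chromosome 1. They part on chromosomes 12, 14 and X, in the first part of chromosome 2 and over much of chromosome 3.

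With all filters there were 3 runs of 3 or more neighbouring genes: Dcun1d5, Mmp13, Mmp12 and Mmp3, then Yap1, Cfap300 and Pgr, both on chromosome 9 and higher in HC11-FL, and the protocadherins Pcdhb16, Pcdhb17 and Pcdhb18 on chromosome 18, which were lower by 3.88-fold, 2.40-fold and 2.59-fold and have similar sequences. With the adjusted p alone there were 69 runs higher and 149 runs lower in HC11-FL, and 44 of the lower runs lay on chromosome 8.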

How the data were processed

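RNA of 9 samples (HC11-FL, HC11-mutB1 and HC11-ΔSAP, 3 each) was hybridized to Affymetrix Mouse Gene 1.0 ST arrays. The authors computed log2 expression values with RMA, which corrects background, brings the arrays to 1 distribution and combines probes; R 2.10.0 and affy are named in the submitters' notes. The deposited log2 values of 34760 probesets were used as they are. Array medians ran from 4.53 to 4.60. Scans and scan dates were not used here, so no scan batch was examined; the number of arrays limits the precision.

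A model with 1 mean per strain was fitted to all 9 arrays with limma 3.58.1 in R 4.3.3 with 6 residual degrees of freedom and a prior of 1.93. The Benjamini-Hochberg adjustment ran over every probeset. Of the probesets, 21640 had 1 gene symbol, 1321 several and 11799 none listed. Per gene the probeset with the highest mean was used. A common change required the pooled call and an adjusted p of at most 0.01 with the same sign against each mutant. Scripts were tested on simulated data. The 29 gene lists (and the marker lists), the comparison and the naming rule were chosen with earlier results of these data known. The result of 1 list is not reported here.

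Named genes were the 12 largest common changes in each direction, the 10 largest with little difference between the mutants, the 3 largest in each direction for each single mutant, on and off genes, opposed genes, the 3 largest members of each list at the threshold, members of runs, and Mkl1, Mkl2, Srf and Tnc. The 12 largest were taken among common changes whose HC11-FL arrays lay outside the range of the mutant arrays. Further list members, the CArG genes and the genes bounding chromosome stretches were named after their values were seen. Same-numbered arrays were not paired: correlations of their deviations from the strain means ran from -0.11 to 0.26.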

Additional observations from a re-analysis of the deposited data

Results flagged for a closer look

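For 50 probesets named by rule and reported here, the direct comparison of the mutants passed the adjusted p and the fold minimum, which means that the distance from HC11-FL was not the same in both strains. Values are HC11-ΔSAP minus HC11-mutB1 on the log2 scale, tested with limma. Common changes higher in HC11-FL with HC11-ΔSAP nearer to it were Lox (4.97), Zeb2 (2.46), Cavin2 (2.46), Acss3 (2.37), Mmp3 (2.12), the mineralization inhibitor Mgp (1.57), P4ha2 (1.17), Tgfbr3 (1.13), Cldn7 (1.09) and Cldn4 (1.08). Vim (-1.44) and Slc15a2 (-1.21) had HC11-mutB1 nearer. Among common changes lower in HC11-FL, Fbln5 (2.42), Pappa (1.65), Cdh2 (1.62) and Sirpa (1.61) were highest in HC11-ΔSAP, whereas Jag1 (-1.57), Pcdhb16 (-1.53), Igfbp4 (-1.43) and Pcdhb17 (-1.06) were highest in HC11-mutB1.

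Changes carried by HC11-mutB1 differed by 3.89 (Hp), 3.03 (Saa3), 2.57 (Plag1), 2.30 (Ifit1), -2.68 (Lratd1), -2.54 (Fam20a), -2.44 (Igsf10) and -1.77 (Adamtsl3). Changes carried by HC11-ΔSAP differed by -1.95 (Wisp1), -1.87 (Mcm6), -1.46 (Adamts16), 3.29 (Ccl3), 2.68 (Ndst4), 2.58 (Pros1) and 1.85 (Mme). Among list members under the fold minimum in the average, the mutants differed by -2.21 (Nuf2), -1.91 (Nek2), -1.72 (Bub1b), -1.30 (the replication factor Mcm3) and -1.21 (the kinase Plk2).

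Genes on opposite sides of HC11-FL differed by 5.03 (Saa2), 4.27 (the probeset without a listed gene), 3.79 (Saa1), 2.73 (Wfdc17) and 2.41 (Cfb), and by -3.05 (Krt5), -2.72 (Tnc), -2.32 (Mastl), -2.29 (Col11a1) and -2.22 (Bub1). The serum amyloid genes are similar in sequence, so their probesets may share signal.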

How the results depend on the processing

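Counts below are given as higher, then lower in HC11-FL. A 90% interval, no expression minimum, adjustment over expressed probesets only, a mean-variance trend, robust eBayes, new centring, new quantile normalization, probesets without repeated values and 1 probeset per gene kept every count within 1.5 times of the value reported, and an adjusted p of 0.05 did so except for changes carried by 1 mutant higher in HC11-FL (12 in place of 22). A fit with 1 mean for all 6 mutant arrays called 114 higher, and 0 and 2 carried by 1 mutant, since the spread between the mutants counts as error there. A mean of at least 6 gave 99 common and 35 little-different higher probesets and 12 lower ones carried by 1 mutant. With no fold minimum, 1910 and 2517 probesets passed, 817 and 1429 were common, 662 and 1202 differed little, 1093 and 1088 were carried by 1 mutant, and 294 were opposed. Tested against 2-fold (limma treat), 73 and 87 passed, 71 and 85 were common, 16 and 27 differed little, and 2 and 2 were carried by 1 mutant. An interval within 0.32 on the log2 scale, in place of 0.58, left 20 and 42 little-different changes, and one within 2-fold gave 106 and 172. With each mutant also at 2-fold, 136 common changes remained lower. Without a fold minimum there were 69 and 149 runs, and with all filters 43 and 29 list members were called in place of 196 and 137.

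Leaving out each array in turn gave 167 to 178 and 253 to 269 called probesets, 142 to 153 and 221 to 236 common, 49 to 58 and 86 to 100 with little difference, 21 to 26 and 31 to 36 carried by 1 mutant, and 10 to 12 opposed. The replicate number as a replicate block gave 151 and 226 common changes; the numbers do not pair the arrays. Of 134 named genes, direction was compared in the 121 with a test, and none of these changed direction under any alternative run. Of the 2412 values of all named genes, 110 no longer passed, most of them in the fit with 1 mean for both mutants or in the test against 2-fold. Bub1b and Scai also lost their call without HC11-FL replicate 1, and Scai without HC11-FL replicate 3. Taking off the local median, added after the data were seen, left 129 and 164 of 138 and 205 common genes.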
